A study of Mus musculus with 10 samples.

Results

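Respiratory complexes II to V of the mitochondrial inner membrane are described here through the nuclear genes of their subunits, in embryonic mouse lenses with and without Dicer, an RNase III enzyme that produces mature microRNAs from their hairpins. Members were the genes whose symbol is Sdha, Sdhb, Sdhc, Sdhd or Cyc1, or begins with Uqcr, Cox4, Cox5, Cox6, Cox7, Cox8 or Atp5. That gave 47 of the 19938 genes tested: 4 of complex II, 9 of complex III, 17 of complex IV and 17 of complex V. DicerCN embryos were hemizygous for Le-Cre, a transgene that makes Cre in ectoderm-derived lens and cornea under Pax6's P0 promoter, and both of their Dicer alleles had loxP sites. Control embryos, called wild type in some labels, had no Le-Cre but also had loxP sites in both Dicer alleles. No group had Le-Cre with intact Dicer, so Cre itself and Dicer loss cannot be told apart. Lenses were taken at E13.5, and the lens pair of 1 embryo made 1 RNA sample and 1 array, with 5 arrays per group. Values are log2 signals of probe sets, and a change is the DicerCN mean minus the control mean on that scale.

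These complexes carry out most of oxidative phosphorylation. Complex II, succinate dehydrogenase, passes electrons from the citrate cycle to ubiquinone. Complex III passes them from ubiquinone to cytochrome c, and complex IV, cytochrome c oxidase, from there to oxygen. Complex V, ATP synthase, makes ATP as protons flow back through its membrane ring. In the lens, mitochondria work in the epithelium and in young fibre cells and are lost as fibre cells mature.

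Subunit genes were lower in DicerCN lenses in each of the 4 complexes, and none was higher. By limma with Benjamini-Hochberg adjustment over all genes, at a threshold of 0.05, 20 of 47 members (42.6%) fell, against 3.97% of all genes. None rose, against 2.56% of all genes, and none had a positive change even at an unadjusted p under 0.05, where 29 members had a negative one. At that unadjusted threshold 2041 of the 19938 genes had a negative change and 1667 a positive one. The falls lay between 1.21-fold for Uqcrc1, a core protein of complex III, and 2.05-fold for Atp5md, a small membrane subunit of ATP synthase. The median change over all members was -0.33, against -0.0014 over all genes. All DicerCN arrays lay below all control arrays in 19 members, against 4.42% of all genes, and above them in 0, against 2.96%. Of the 47 members, 38 were among the 4985 genes of highest signal. Of those 38, 18 fell, against 8.0% of the 4985 genes. In whole lenses, fewer cells of a type and less RNA per cell cannot be told apart.

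By complex, 6 of 9 members of complex III fell, 9 of 17 of complex V, 4 of 17 of complex IV and 1 of 4 of complex II. The median changes were -0.46 for complex III, -0.47 for complex V, -0.25 for complex IV and -0.26 for complex II. Whether the complexes differ from one another was not tested. The median deviation of complex V members from their control means was -0.33, -0.56, -0.51, -0.46 and -0.64 on DicerCN arrays 1 to 5, and between -0.07 and 0.10 on the control arrays. For complex III the DicerCN arrays lay between -0.67 and -0.32 and the control arrays between -0.08 and 0.08. For complex IV they lay between -0.38 and -0.08, against -0.07 to 0.09. Those of complex II overlapped, at -0.46 to -0.02 in DicerCN and -0.13 to 0.15 in control lenses. DicerCN replicate 5 was the lowest array in all 4 complexes.

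**Figure D1:**
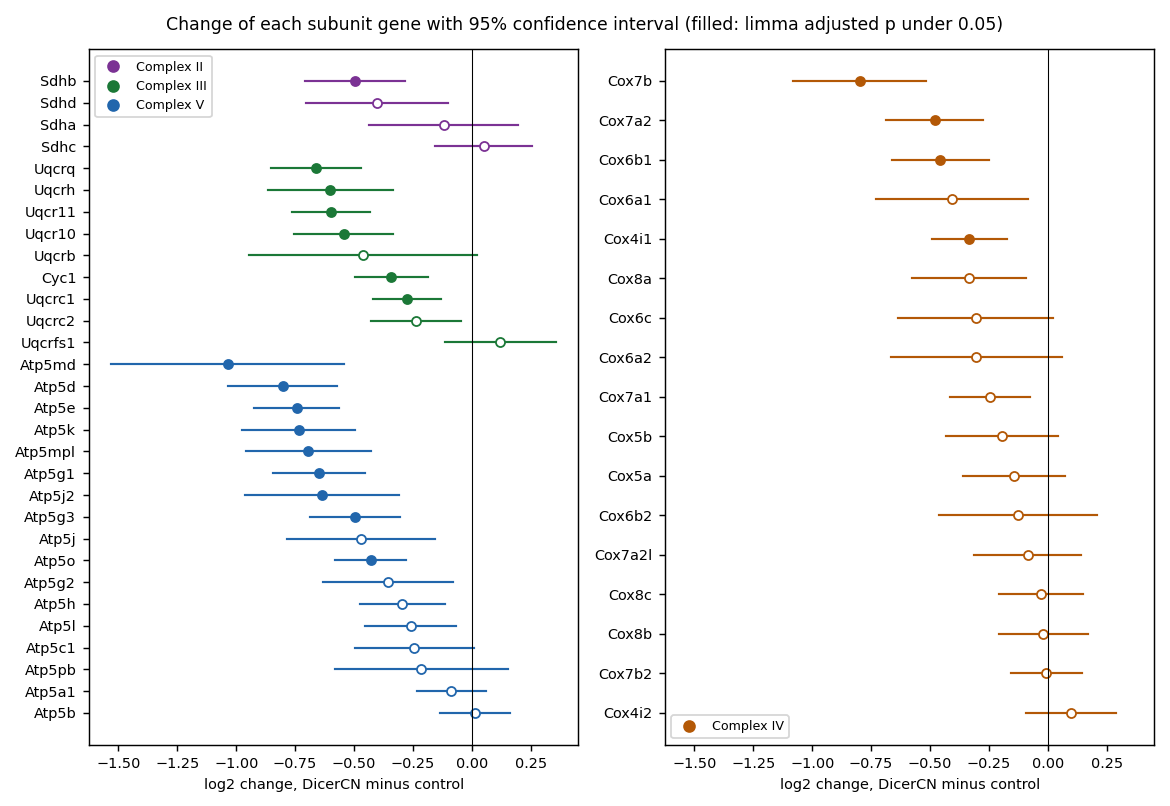
Change of each of the 47 subunit genes (log2, DicerCN minus control) with its 95% confidence interval, coloured by complex, with filled circles for the 20 that passed the limma test. Nearly all lie left of 0, from -1.04 for Atp5md, and the 4 positive changes (Sdhc, Uqcrfs1, Cox4i2 and Atp5b) are all open circles.

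The arrays were checked against the labelled tissue. All 13 measured lens markers, among them the alpha crystallin genes Cryaa and Cryab and the transcription factors Pax6 and Prox1, were in the top 5% of signals, and none of the 13 passed the test (3 lower and 0 higher at an unadjusted p under 0.05). The unadjusted counts here stand beside 2041 lower and 1667 higher of the 19938 genes. Dicer1 did not pass the test (0.13, limma adjusted p = 0.472), but no label names the floxed exons, so its signal does not check the genotype. Control replicate 4 stood apart in 16 striated muscle markers, with a mean signal of 9.19, against 6.08 to 6.29 in DicerCN lenses, and 0 of the 16 passed the test. DicerCN replicate 5 stood apart in 10 neural retina markers, with a mean of 8.79, against 6.66 to 7.26 in control lenses, and 0 of the 10 passed. With the retina mean as a covariate 15 of the 20 calls were kept, with 0 rises. Pigment epithelium markers ran from 5.91 to 7.43 in DicerCN and from 5.86 to 6.19 in control lenses, with 0 of 8 passing (5 higher at an unadjusted p under 0.05) and a median change of 0.63. Erythroid markers ran from 8.22 to 8.57 in DicerCN and from 7.68 to 8.44 in control lenses, with 0 of 8 passing (3 higher at an unadjusted p under 0.05) and a median change of 0.23. Vascular endothelium markers ran from 8.37 to 9.66 in DicerCN and from 8.45 to 9.11 in control lenses, with 0 of 6 passing. Periocular mesenchyme markers ran from 7.52 to 8.51 in DicerCN and from 7.44 to 8.44 in control lenses, with 1 of 7 lower. The part of pigment, erythroid, vascular and mesenchyme cells in the results was not tested. The mean of 3 Y-linked genes ran from 4.42 to 8.63 in DicerCN and from 4.0 to 8.63 in control lenses, so both sexes were present in each group. With that mean as a covariate 20 members fell. Leaving out both control replicate 4 and DicerCN replicate 5, 17 members fell and 0 rose, and the median change was -0.33. Macrophage markers ran from 6.64 to 7.45 in DicerCN and from 6.13 to 6.78 in control lenses, and 2 of 16, Csf1r and Cx3cr1, were higher (12 at an unadjusted p under 0.05). With the macrophage mean as a covariate the median change of the members was -0.43 and 12 of the 20 calls were kept, with 0 rises, while over all genes it left 62 higher and 159 lower calls, against 511 and 792 without it.

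The promoters of subunit genes are known for sites of the nuclear respiratory factor NRF1 and of the ETS-family factor GABP, which activate many mitochondrial genes. RefSeq windows of GRCm38.p6, from 250 bases before to 50 after the start, were at hand for 35 members (38 windows). On either strand the NRF1 motif lay in 10 of 38 member windows (26.3%), against 6.38% of the windows of protein-coding genes. The GABP core CCGGAAG lay in 13 of 38 (34.2%), against 11.6%. The YY1 motif AANATGGCG lay in 3 of 38 (7.89%), against 3.12%, and the ERR site AAGGTCA in 5 of 38 (13.2%), against 4.08%. The SP1 box GGGCGG went the other way, in 14 of 38 (36.8%), against 46.2%. It lay in 4 of the 17 windows of members that fell (23.5%) and in 10 of 21 of members that did not pass (47.6%). In windows of members that fell, NRF1 and GABP letters were found in 4 and 7 of 17, and in windows of members that did not pass the test in 6 and 6 of 21. A match is a description of letters and not of binding. Below are 4 windows of members that fell, 1 per complex, and then 2 of members that did not pass, 5′ to 3′. Matches to the NRF1, GABP and YY1 motifs on either strand are in capitals. The first 4 all hold the GABP core, which was found in only 7 of the 17 windows of members that fell. The Sdhb window is chr4:140961021-140961320 on the plus strand, that of Uqcr11 chr10:80406772-80407071 on the minus strand, that of Cox6b1 chr7:30626065-30626364 on the minus strand and that of Atp5k chr5:108434350-108434649 on the minus strand. The Cox6a1 window is chr5:115348909-115349208 on the minus strand and that of Atp5b chr10:128083057-128083356 on the plus strand.
Sdhb: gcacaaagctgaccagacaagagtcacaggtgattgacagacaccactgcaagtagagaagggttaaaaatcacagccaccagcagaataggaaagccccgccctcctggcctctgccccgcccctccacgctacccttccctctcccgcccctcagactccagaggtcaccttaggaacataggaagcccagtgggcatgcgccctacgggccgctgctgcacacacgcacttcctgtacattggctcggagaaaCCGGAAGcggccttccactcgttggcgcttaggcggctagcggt
Uqcr11: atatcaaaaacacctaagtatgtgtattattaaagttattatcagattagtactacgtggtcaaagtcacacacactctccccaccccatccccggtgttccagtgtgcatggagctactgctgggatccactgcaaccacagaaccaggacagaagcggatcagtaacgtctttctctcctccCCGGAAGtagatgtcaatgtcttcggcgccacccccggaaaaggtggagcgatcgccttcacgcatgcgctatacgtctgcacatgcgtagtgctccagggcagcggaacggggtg
Cox6b1: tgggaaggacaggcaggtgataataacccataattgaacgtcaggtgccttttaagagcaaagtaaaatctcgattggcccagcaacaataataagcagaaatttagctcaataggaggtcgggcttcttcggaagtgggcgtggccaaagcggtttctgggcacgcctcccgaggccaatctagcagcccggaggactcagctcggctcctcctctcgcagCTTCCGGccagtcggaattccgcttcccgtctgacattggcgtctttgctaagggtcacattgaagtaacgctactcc
Atp5k: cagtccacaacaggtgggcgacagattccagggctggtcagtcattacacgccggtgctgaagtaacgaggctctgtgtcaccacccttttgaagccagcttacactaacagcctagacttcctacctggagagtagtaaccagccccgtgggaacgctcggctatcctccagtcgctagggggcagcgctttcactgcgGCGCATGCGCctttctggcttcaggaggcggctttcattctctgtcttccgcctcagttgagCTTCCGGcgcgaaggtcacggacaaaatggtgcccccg
Cox6a1: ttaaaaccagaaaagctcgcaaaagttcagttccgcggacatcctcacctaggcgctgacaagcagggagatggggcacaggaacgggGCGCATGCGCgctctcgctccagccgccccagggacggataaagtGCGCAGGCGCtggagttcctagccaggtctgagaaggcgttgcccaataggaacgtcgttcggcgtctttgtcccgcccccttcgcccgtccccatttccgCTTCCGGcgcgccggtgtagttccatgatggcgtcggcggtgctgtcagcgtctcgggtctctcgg
Atp5b: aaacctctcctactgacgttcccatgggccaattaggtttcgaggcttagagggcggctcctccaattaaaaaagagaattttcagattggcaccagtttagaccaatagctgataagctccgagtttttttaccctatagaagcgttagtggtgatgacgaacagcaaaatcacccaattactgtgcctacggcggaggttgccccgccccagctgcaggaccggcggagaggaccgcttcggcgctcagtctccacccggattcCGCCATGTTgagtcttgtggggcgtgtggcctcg
The GABP core is the capital run in Sdhb and Uqcr11 and, on the opposite strand, in Cox6b1. Atp5k and Cox6a1 hold both NRF1 and GABP letters, 1 NRF1 match in Atp5k and 2 in Cox6a1, although the first fell and the second did not pass the test. Atp5b holds the YY1 letters just past its start and no NRF1 or GABP letters.

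In complex II, the subunit that fell was Sdhb, the iron-sulfur protein that carries electrons from the catalytic site to the membrane. Sdhb had log2 signals of 9.11, 8.90, 9.28, 8.94 and 8.72 in DicerCN replicates 1 to 5, against 9.56, 9.44, 9.52, 9.41 and 9.50 in control replicates 1 to 5. It fell by 0.50 (SE 0.10, limma adjusted p = 0.0102), 1.41-fold lower, and the groups did not overlap. Sdhd, a membrane anchor that helps to bind ubiquinone, had signals of 8.60, 8.17, 8.08, 8.50 and 7.97 in DicerCN replicates 1 to 5, against 8.58, 9.01, 8.74, 8.61 and 8.40 in control replicates 1 to 5. DicerCN replicates 1 and 4 lay among the controls, and the change of -0.40 (95% confidence interval -0.71 to -0.10, limma adjusted p = 0.117) did not pass. Sdha, the flavoprotein that oxidises succinate, had 10.31, 9.76, 9.44, 10.04 and 9.75 in DicerCN replicates 1 to 5, against 10.03, 10.21, 9.84, 10.06 and 9.75 in control replicates 1 to 5. Its groups overlapped widely, with a change of -0.12 (95% confidence interval -0.44 to 0.20, limma adjusted p = 0.747). Sdhc, the other anchor, had 9.63, 9.38, 9.78, 9.84 and 9.69 in DicerCN replicates 1 to 5, against 9.49, 9.68, 9.76, 9.57 and 9.58 in control replicates 1 to 5. Its change was 0.05 (95% confidence interval -0.15 to 0.25, limma adjusted p = 0.855).

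In complex III the falls reached the catalytic cytochrome, a core protein and most of the small subunits. Cyc1, cytochrome c1, which hands electrons to cytochrome c, had log2 signals of 10.04, 10.15, 10.22, 10.12 and 10.20 in DicerCN replicates 1 to 5, against 10.47, 10.41, 10.61, 10.41 and 10.53 in control replicates 1 to 5. It fell by 0.34 (SE 0.07, limma adjusted p = 0.0130), with means of 10.15 ± 0.07 in DicerCN and 10.49 ± 0.08 in control lenses (SD, n = 5 each). With the macrophage covariate it did not pass (0.208). The core proteins Uqcrc1 and Uqcrc2 resemble processing peptidases and form the matrix side of the complex. Uqcrc1 had 10.52, 10.42, 10.46, 10.49 and 10.36 in DicerCN replicates 1 to 5, against 10.77, 10.71, 10.81, 10.68 and 10.65 in control replicates 1 to 5, without overlap, and fell by 0.28 (SE 0.07, limma adjusted p = 0.0278). That call did not hold when any 1 of 6 arrays was left out (DicerCN 2, 4 or 5 or control 1, 2 or 3, with adjusted p between 0.0503 and 0.0818). Nor did it hold with the retina (0.0885) or macrophage (0.147) covariate or without both arrays that stood apart (0.0779). Uqcrc2 had 10.86, 10.43, 10.52, 10.59 and 10.53 in DicerCN replicates 1 to 5, against 10.90, 10.88, 10.85, 10.74 and 10.75 in control replicates 1 to 5. DicerCN replicate 1 lay among the controls, and the change was -0.24 (95% confidence interval -0.43 to -0.05, limma adjusted p = 0.148). It passed without that array, at an adjusted p of 0.0291.

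The steepest falls of complex III were in its small subunits. Uqcrq, a small subunit beside cytochrome b, had log2 signals of 8.10, 7.85, 7.90, 8.02 and 7.87 in DicerCN replicates 1 to 5, against 8.62, 8.82, 8.51, 8.67 and 8.43 in control replicates 1 to 5. The highest DicerCN array lay 0.33 below the lowest control array, and it fell by 0.66 (SE 0.09, limma adjusted p = 0.000975), 1.58-fold lower. Uqcr11, the smallest subunit of the complex, had 8.17, 8.18, 8.12, 8.03 and 8.04 in DicerCN replicates 1 to 5, against 8.68, 8.71, 8.82, 8.53 and 8.78 in control replicates 1 to 5. It fell by 0.60 (SE 0.08, limma adjusted p = 0.000741), with means of 8.11 ± 0.07 in DicerCN and 8.70 ± 0.11 in control lenses (SD, n = 5 each). Uqcrh, the hinge protein that docks cytochrome c on Cyc1, had 10.26, 9.64, 9.89, 10.27 and 9.88 in DicerCN replicates 1 to 5, against 10.60, 10.75, 10.67, 10.51 and 10.42 in control replicates 1 to 5. It fell by 0.60 (SE 0.12, limma adjusted p = 0.0113), and DicerCN replicates 1 and 4 lay highest in their group. Uqcr10, which sits beside Cyc1, had 8.09, 7.86, 8.12, 7.90 and 7.71 in DicerCN replicates 1 to 5, against 8.39, 8.56, 8.62, 8.30 and 8.54 in control replicates 1 to 5. It fell by 0.54 (SE 0.10, limma adjusted p = 0.00535), without overlap. Uqcrb, which binds near the ubiquinone site, did not pass, at -0.46 (95% confidence interval -0.95 to 0.02, limma adjusted p = 0.297), with DicerCN signals from 8.27 to 9.37 and control signals from 8.82 to 9.83.

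Uqcrfs1, the Rieske iron-sulfur protein that takes electrons from ubiquinol, did not share the direction of the other 8 members of complex III. Its log2 signals were 9.15, 8.97, 9.27, 8.78 and 8.69 in DicerCN replicates 1 to 5, against 8.88, 8.76, 8.88, 8.77 and 8.96 in control replicates 1 to 5. The groups overlapped, and the change was 0.12 (95% confidence interval -0.11 to 0.36, limma adjusted p = 0.634), an interval that lies above those of all 6 members that fell.

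In complex IV the catalytic core is encoded by mitochondrial DNA, which was not analysed here, and the measured genes encode the subunits around it. Cox4i1, the largest of these in common use and a site of control by ATP, had log2 signals of 10.11, 10.01, 10.04, 10.06 and 9.87 in DicerCN replicates 1 to 5, against 10.36, 10.36, 10.49, 10.27 and 10.29 in control replicates 1 to 5. It fell by 0.33 (SE 0.07, limma adjusted p = 0.0169) and did not overlap, and its call was lost with the retina (adjusted p = 0.0632) and macrophage (0.0956) covariates. Cox6b1, which joins the monomers of the enzyme on the side of the intermembrane space, had 10.25, 9.92, 10.08, 10.05 and 9.82 in DicerCN replicates 1 to 5, against 10.41, 10.59, 10.55, 10.57 and 10.28 in control replicates 1 to 5. It fell by 0.46 (SE 0.10, limma adjusted p = 0.0134), a call that did not hold with the retina covariate (0.0513) or without both arrays that stood apart (0.0526). Cox7a2, an accessory membrane subunit, had 8.79, 8.39, 8.56, 8.78 and 8.64 in DicerCN replicates 1 to 5, against 9.21, 9.27, 9.10, 9.04 and 8.94 in control replicates 1 to 5. It fell by 0.48 (SE 0.10, limma adjusted p = 0.0100), but did not pass with the macrophage covariate (0.0728).

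Cox7b, a small X-linked subunit needed for assembly of the enzyme, fell most in complex IV. Its log2 signals were 9.67, 9.40, 9.17, 9.60 and 9.14 in DicerCN replicates 1 to 5, against 10.14, 10.56, 10.01, 10.21 and 10.04 in control replicates 1 to 5. The groups were 0.34 apart at their nearest arrays, and it fell by 0.80 (SE 0.13, limma adjusted p = 0.00320), 1.74-fold lower. Cox6a1, which helps to join the dimer, had 9.87, 10.40, 10.81, 10.26 and 10.07 in DicerCN replicates 1 to 5, against 10.79, 10.44, 10.78, 10.76 and 10.67 in control replicates 1 to 5. DicerCN replicate 3 lay above all controls and replicates 1, 2, 4 and 5 below them all. The change was -0.41 (95% confidence interval -0.73 to -0.08, limma adjusted p = 0.146). It passed without DicerCN replicate 3 (0.0209). Cox8a, a short subunit that crosses the membrane, had 8.76, 8.54, 8.45, 8.50 and 8.31 in DicerCN replicates 1 to 5, against 8.65, 9.14, 8.72, 9.0 and 8.71 in control replicates 1 to 5, and a change of -0.33 (95% confidence interval -0.58 to -0.09, limma adjusted p = 0.107). Cox6c, a membrane subunit, and Cox5b and Cox5a, which bind the core from the matrix side, stood at -0.31, -0.19 and -0.14 (adjusted p = 0.309, 0.391 and 0.511). Cox7a2l, which links complexes III and IV into supercomplexes, had 9.52, 9.44, 9.62, 9.73 and 9.23 in DicerCN replicates 1 to 5, against 9.58, 9.72, 9.60, 9.73 and 9.35 in control replicates 1 to 5. Its groups overlapped, at -0.09 (95% confidence interval -0.31 to 0.14, limma adjusted p = 0.743).

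Several complex IV subunits have isoforms that other tissues use, and none of these passed the test. Cox6a2, Cox7a1 and Cox8b are the forms of heart and skeletal muscle. Cox6a2 had log2 signals of 7.05, 7.25, 7.17, 7.0 and 7.11 in DicerCN replicates 1 to 5, against 7.46, 6.93, 7.33, 8.10 and 7.28 in control replicates 1 to 5, and control replicate 4, the array with raised muscle markers, was the highest of all. Its change was -0.30 (95% confidence interval -0.67 to 0.06, limma adjusted p = 0.375). Cox7a1 had 5.79, 5.79, 5.74, 5.80 and 5.78 in DicerCN replicates 1 to 5, against 6.15, 6.10, 5.78, 6.0 and 6.08 in control replicates 1 to 5. The DicerCN arrays were close together, control replicate 3 lay among them, and the change was -0.25 (95% confidence interval -0.42 to -0.07, limma adjusted p = 0.0921). It passed after quantile normalization (0.0472), with array weights (0.0461) and without control replicate 3 (0.0255). Cox8b had 5.72, 5.86, 5.77, 5.71 and 5.49 in DicerCN replicates 1 to 5, against 5.79, 5.82, 5.53, 5.72 and 5.79 in control replicates 1 to 5, with a change of -0.02 (95% confidence interval -0.21 to 0.17, limma adjusted p = 0.946). Control replicate 4 was not raised in Cox7a1 or Cox8b. Both genes had signals below the median of all genes (percentiles 33.8 and 30.5), and neither was shown to be above background.

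Cox6b2, Cox7b2 and Cox8c are the forms known from testis. Cox6b2 had log2 signals of 6.81, 6.62, 7.37, 7.08 and 7.49 in DicerCN replicates 1 to 5, against 7.27, 7.09, 7.34, 6.97 and 7.32 in control replicates 1 to 5, and a change of -0.13 (95% confidence interval -0.46 to 0.21, limma adjusted p = 0.744). Cox7b2 had 4.23, 4.29, 4.31, 4.18 and 4.26 in DicerCN replicates 1 to 5, against 4.28, 4.11, 4.32, 4.26 and 4.33 in control replicates 1 to 5, in the lowest 10% of all genes by signal, and a change of -0.01 (95% confidence interval -0.16 to 0.14, limma adjusted p = 0.976). Cox8c had 6.64, 6.49, 6.57, 6.45 and 6.33 in DicerCN replicates 1 to 5, against 6.52, 6.67, 6.59, 6.43 and 6.42 in control replicates 1 to 5, with a change of -0.03 (95% confidence interval -0.21 to 0.15, limma adjusted p = 0.910). In all 3 the groups overlapped. Cox4i2, an isoform induced by low oxygen in lung and other tissues, had 6.59, 6.76, 6.90, 6.71 and 6.85 in DicerCN replicates 1 to 5, against 6.67, 6.55, 6.59, 6.61 and 6.90 in control replicates 1 to 5. Its change was 0.10 (95% confidence interval -0.09 to 0.29, limma adjusted p = 0.638), and its interval lies above that of Cox4i1.

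**Figure D2:**
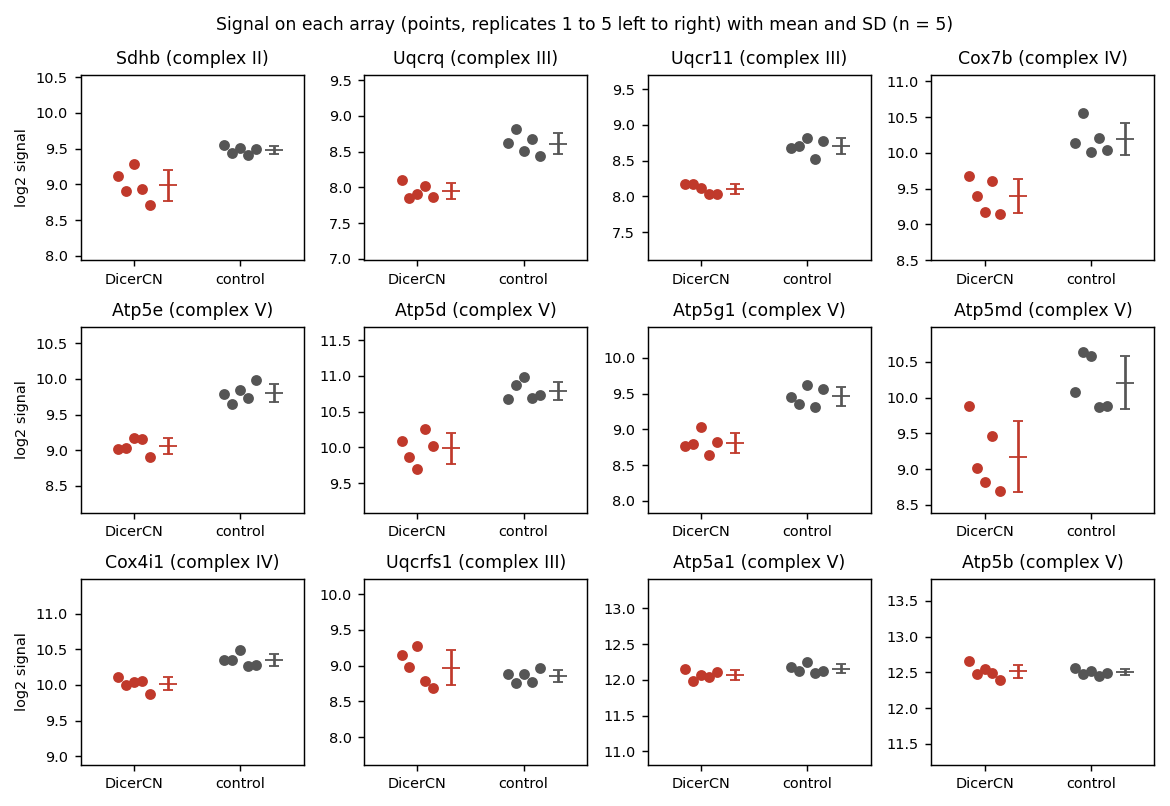
Log2 signal of 12 subunit genes on each of the 5 DicerCN and 5 control arrays, with the mean and SD beside the points; every panel spans the same range. The groups are apart in Sdhb, Uqcrq, Uqcr11, Cox7b, Atp5e, Atp5d, Atp5g1 and Cox4i1 and touch in Atp5md (highest DicerCN array 9.88), while those of Uqcrfs1, Atp5a1 and Atp5b overlap.

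In complex V the head of ATP synthase, where ATP is made, and its central stalk did not move as 1. The alpha, beta and gamma subunits did not pass the test, and delta and epsilon, both of the stalk, fell. Atp5b, the catalytic beta subunit, had log2 signals of 12.65, 12.48, 12.54, 12.49 and 12.40 in DicerCN replicates 1 to 5, against 12.56, 12.48, 12.53, 12.45 and 12.49 in control replicates 1 to 5. The groups overlapped fully, and the interval of the change is narrow, at 0.01 (95% confidence interval -0.14 to 0.16, limma adjusted p = 0.955). Atp5a1, the alpha subunit that alternates with beta, had 12.15, 11.98, 12.07, 12.04 and 12.11 in DicerCN replicates 1 to 5, against 12.18, 12.13, 12.26, 12.09 and 12.12 in control replicates 1 to 5. Its change was -0.09 (95% confidence interval -0.23 to 0.06, limma adjusted p = 0.563). Atp5c1, the gamma subunit that turns inside the head, stood at -0.24 (95% confidence interval -0.50 to 0.01, limma adjusted p = 0.287).

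Atp5d, the delta subunit at the foot of the central stalk, had log2 signals of 10.09, 9.86, 9.70, 10.26 and 10.02 in DicerCN replicates 1 to 5, against 10.67, 10.87, 10.98, 10.69 and 10.73 in control replicates 1 to 5. The groups were 0.41 apart at their nearest arrays, and it fell by 0.80 (SE 0.11, limma adjusted p = 0.000974), 1.75-fold lower. Atp5e, the epsilon subunit beside it, had 9.02, 9.03, 9.18, 9.15 and 8.91 in DicerCN replicates 1 to 5, against 9.79, 9.65, 9.84, 9.73 and 9.99 in control replicates 1 to 5. It fell by 0.74 (SE 0.08, limma adjusted p = 0.000287), 1.67-fold lower, with means of 9.06 ± 0.11 in DicerCN and 9.80 ± 0.13 in control lenses (SD, n = 5 each). The intervals of Atp5d (-1.04 to -0.57) and Atp5e (-0.92 to -0.56) lie wholly below those of Atp5a1 and Atp5b.

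The c subunit forms the rotating ring in the membrane, and Atp5g1, Atp5g2 and Atp5g3 encode the same mature protein with different import signals. Atp5g1 had log2 signals of 8.77, 8.79, 9.03, 8.65 and 8.82 in DicerCN replicates 1 to 5, against 9.45, 9.35, 9.62, 9.32 and 9.57 in control replicates 1 to 5. It fell by 0.65 (SE 0.09, limma adjusted p = 0.00115), 1.57-fold lower, without overlap. Atp5g3 had 10.50, 10.42, 10.73, 10.50 and 10.28 in DicerCN replicates 1 to 5, against 10.84, 10.99, 11.05, 11.0 and 11.02 in control replicates 1 to 5. It fell by 0.49 (SE 0.09, limma adjusted p = 0.00547), and its groups did not overlap either. Atp5g2 had 10.71, 10.80, 11.37, 10.83 and 10.98 in DicerCN replicates 1 to 5, against 11.25, 11.17, 11.57, 11.10 and 11.38 in control replicates 1 to 5. DicerCN replicate 3 lay among the controls, and the change was -0.35 (95% confidence interval -0.63 to -0.08, limma adjusted p = 0.137). It passed without that array (0.0243).

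The stator holds the head still against the ring. Atp5o, its oligomycin sensitivity protein at the top of the head, had log2 signals of 9.83, 9.80, 9.98, 9.98 and 9.85 in DicerCN replicates 1 to 5, against 10.31, 10.41, 10.31, 10.24 and 10.31 in control replicates 1 to 5. It fell by 0.43 (SE 0.07, limma adjusted p = 0.00305), with means of 9.89 ± 0.09 in DicerCN and 10.32 ± 0.06 in control lenses (SD, n = 5 each). With the macrophage covariate its adjusted p was 0.0503, just past the threshold. The other stator members did not pass: Atp5h (d) stood at -0.30 (-0.48 to -0.12, adjusted p = 0.0542), Atp5j (coupling factor 6) at -0.47 (-0.78 to -0.16, adjusted p = 0.0765) and Atp5pb (b) at -0.21 (-0.58 to 0.15, adjusted p = 0.576). The groups did not overlap in Atp5h, which passed under 6 of 22 alternatives, among them the mean of its probe sets and the fit without genes of low signal. Atp5j passed without DicerCN replicate 1 and without DicerCN replicate 4 (lowest limma adjusted p = 0.0388).

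The small membrane subunits hold the dimers that shape the cristae, and 4 of these 5 genes fell. Atp5k, subunit e, had log2 signals of 8.81, 8.28, 8.63, 8.82 and 8.39 in DicerCN replicates 1 to 5, against 9.28, 9.30, 9.51, 9.27 and 9.25 in control replicates 1 to 5. It fell by 0.74 (SE 0.11, limma adjusted p = 0.00207), 1.67-fold lower. Atp5mpl, a short proteolipid, had 9.999, 9.55, 9.43, 9.85 and 9.48 in DicerCN replicates 1 to 5, against 10.13, 10.57, 10.47, 10.29 and 10.31 in control replicates 1 to 5. It fell by 0.69 (SE 0.12, limma adjusted p = 0.00507), but with the macrophage covariate its adjusted p was 0.0501. Atp5md, known as DAPIT, had 9.88, 9.01, 8.82, 9.47 and 8.69 in DicerCN replicates 1 to 5, against 10.08, 10.63, 10.58, 9.88 and 9.88 in control replicates 1 to 5. It fell by 1.04 (SE 0.23, limma adjusted p = 0.0171), the largest change of any member, although the highest DicerCN array equalled the lowest controls to 2 decimals. That call was lost without control replicate 3 (0.0503) and with the retina (0.0613) and macrophage (0.0817) covariates. Atp5j2, subunit f, had 10.47, 9.97, 9.77, 10.19 and 9.73 in DicerCN replicates 1 to 5, against 10.57, 11.02, 10.73, 10.62 and 10.38 in control replicates 1 to 5. It fell by 0.64 (SE 0.15, limma adjusted p = 0.0243), with DicerCN replicate 1 among the controls, a call that did not hold when any 1 of 5 arrays was left out (DicerCN 2, 3 or 5 or control 2 or 3, between 0.0519 and 0.0620). With all probe sets tested (0.0542), with the retina (0.0841) and macrophage (0.0891) covariates and without both arrays that stood apart (0.0682) it was lost as well. Atp5l, subunit g, stood at -0.26 (95% confidence interval -0.45 to -0.07, limma adjusted p = 0.117). It passed without DicerCN replicate 3 (limma adjusted p = 0.0498).

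Paralogs were compared within each array, in 11 pairs, by exact 2-sided permutation tests with Benjamini-Hochberg adjustment over the pairs; the smallest possible p is 0.00794. The difference of change was 0.43 (exact permutation p = 0.0159, adjusted p = 0.0349) for Cox4i2 minus Cox4i1. It was 0.39 (exact permutation p = 0.0159, adjusted p = 0.0349) for Cox7a2l minus Cox7a2, but with the other probe set of Cox7a2l, an alternative added after seeing the data, it was 0.23 (exact permutation p = 0.0556, adjusted p = 0.0873) and did not pass. For Cox8c minus Cox8a it was 0.30 (exact permutation p = 0.00794, adjusted p = 0.0349). In each of these 3 the second-named gene changed more to the low side. Cox4i2 and Cox8c had signals below the median of all genes, and neither was shown to be above background, so those differences are not read as a comparison of isoforms either way. For Cox7b2 minus Cox7b, also among the 11 pairs, the difference of 0.79 is that of Cox7b alone, since Cox7b2 lay in the lowest 10% of signals, and it is not read as a comparison of isoforms. Among the c subunit genes, Atp5g1 minus Atp5g2 differed by -0.30 (exact permutation p = 0.0159, adjusted p = 0.0349). Atp5g1 minus Atp5g3 and Atp5g3 minus Atp5g2 did not pass, at -0.16 (exact permutation p = 0.0794, adjusted p = 0.109) and -0.14 (exact permutation p = 0.278, adjusted p = 0.306). Nor did Cox7a1 minus Cox7a2, at 0.23 (exact permutation p = 0.0397, adjusted p = 0.0624), and Cox8b minus Cox8a, at 0.31 (exact permutation p = 0.0397, adjusted p = 0.0624). Cox7a1 and Cox8b also had signals below the median of all genes and were not shown to be above background. Cox6a2 minus Cox6a1 and Cox6b2 minus Cox6b1 stood at 0.10 (exact permutation p = 0.619, adjusted p = 0.619) and 0.33 (exact permutation p = 0.214, adjusted p = 0.262).

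**Figure D3:**
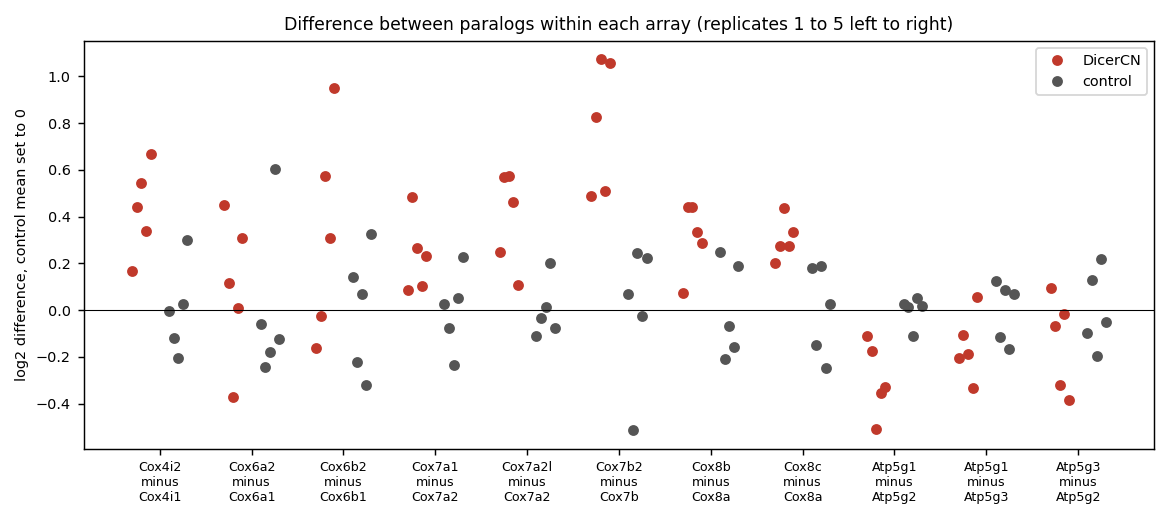
Log2 difference between paralogs on each array, with the control mean of each pair set to 0. DicerCN points lie above all controls in Cox8c minus Cox8a, and 4 of 5 lie below all controls in Atp5g1 minus Atp5g2, where the mean difference was -0.30.

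Of 12 members with more than 1 probe set, none had probe sets of opposite sign. The 3 probe sets of Atp5md changed by -1.04 to -0.89 and all passed the test over all probe sets, as did both of Cox7b (-0.80 and -0.68), Atp5g1 (-0.65 and -0.59) and Uqcr11 (-0.60 and -0.42). The 6 of Atp5l lay between -0.26 and -0.23 and did not pass. The widest disagreement in proportion was in Cox7a2l, at -0.09 for the probe set that stood for the gene and -0.25 for the other (adjusted p over all probe sets = 0.792 and 0.257). For Atp5pb these were -0.21 and -0.32 (limma adjusted p over all probe sets = 0.655 and 0.0713). Many subunit genes have processed copies in the genome that share sequence with them, so signals of a gene and of its copies are uncertain in their division. With group means removed, the median correlation between 2 members over the 10 arrays was 0.22, and 67.0% of pairs were above 0. The points share each array's RNA, so the count of falls is not a count of separate events.

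The other genes of the pathway were counted in the same fit. Of 34 measured subunits of complex I, the NADH dehydrogenase that feeds ubiquinone, 18 fell and 0 rose, with a median change of -0.37, against 3.97% and 2.56% of all genes. Ndufb8 fell by 0.69 (adjusted p = 0.000759), Ndufb7 fell by 0.69 (adjusted p = 0.000575), Ndufs6 fell by 0.66 (adjusted p = 0.00115) and Ndufa8 fell by 0.57 (adjusted p = 0.00113). Over the alternatives this count ran from 8, with the macrophage covariate, to 20, and leaving out 1 array took it as low as 9 (without control replicate 1). The median change was -0.49 with the macrophage covariate and -0.36 without control replicate 1. With the retina covariate the count was 9 and the median change -0.33. Ndufa4, once counted in complex I and now known as a subunit of complex IV, fell by 0.43 (adjusted p = 0.0202), while Cycs, cytochrome c itself, stood at -0.28 (adjusted p = 0.244) and Atpif1, the inhibitor of ATP synthase, at -0.07 (adjusted p = 0.808).

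Of 34 measured assembly factors of complexes II to V, 6 fell (17.6%) and 0 rose, against 3.97% and 2.56% of all genes. Their median change was -0.17. Sdhaf1, which helps to place iron-sulfur clusters in Sdhb, had the largest change of these and fell by 0.85 (adjusted p = 0.000205). Uqcc2, which acts on newly made cytochrome b, fell by 0.70 (adjusted p = 0.00431). Atpaf2, which assists the alpha subunit of ATP synthase, fell by 0.41 (adjusted p = 0.0282), and Fmc1, which works with it in yeast, fell by 0.37 (adjusted p = 0.0319). Cox14 fell by 0.26 (adjusted p = 0.0391), and Bcs1l, which inserts Uqcrfs1, fell by 0.30 (adjusted p = 0.0491). With the macrophage covariate 1 of the 34 assembly factors passed, while the median was -0.19. Leaving out DicerCN replicate 2 or 4 or control replicate 1, 2, 3 or 5 left 2. Of 12 genes of ubiquinone synthesis and handling only Coq10a fell (by 0.39, adjusted p = 0.0169) and 0 rose. The share that fell was 8.33%, against 3.97% of all genes, and Coq2 stood at -0.29 (adjusted p = 0.108).

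Lists of neighbouring mitochondrial functions were read against the 3.97% of all genes that fell and the 2.56% that rose. Unadjusted counts were read against 2041 lower and 1667 higher of the 19938 genes. Of 16 genes of pyruvate oxidation and the citrate cycle 0 fell and 0 rose by limma, with 1 lower and 1 higher at an unadjusted p under 0.05 and a median of -0.075. Idh2, an isocitrate dehydrogenase, came nearest (-0.21, adjusted p = 0.101). Of 18 genes of import, chaperones and carriers only Tomm40, the import pore, fell (by 0.29, adjusted p = 0.0307), a share of 5.56%, and Slc25a5, the carrier that exchanges ADP for ATP, stood at -0.44 (adjusted p = 0.112). Of 16 regulators of mitochondrial gene expression 0 fell and 0 rose, with 2 lower and 0 higher at an unadjusted p under 0.05. Among these the coactivator Ppargc1a stood at 0.38 (adjusted p = 0.353) and Tfb1m, a methyltransferase of mitochondrial ribosomal RNA, at -0.24 (adjusted p = 0.222). Of 12 genes of mitophagy and organelle loss 1 rose and 1 fell (8.33% each). Sqstm1, an autophagy receptor, rose by 0.63 (SE 0.10, limma adjusted p = 0.00252), and Plaat3, a phospholipase needed for organelle breakdown in lens fibre cells, fell by 0.60 (SE 0.13, limma adjusted p = 0.0189).

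Ribosomal protein genes were counted beside the subunit genes. Of 77 genes of mitochondrial ribosomal proteins 22 fell and 0 rose, against 3.97% and 2.56% of all genes, with a median of -0.26. Mrpl42, of the large subunit, fell by 0.91 (adjusted p = 0.00113), and Mrps26, of the small one, fell by 0.67 (adjusted p = 0.00115). Of 61 genes of cytosolic ribosomal proteins, a list added after the members' values were seen, 21 fell and 0 rose, with a median of -0.26. Their median deviation lay between -0.36 and -0.16 on the DicerCN arrays and between -0.05 and 0.06 on the control arrays. The shares of genes that fell were 42.6% for complexes II to V, 52.9% for complex I, 28.6% for mitochondrial and 34.4% for cytosolic ribosomal proteins. Over all genes the share was 3.97%. With the macrophage covariate 3 mitochondrial and 1 cytosolic ribosomal protein genes passed the test, while the medians were -0.29 and -0.35, no smaller than without it. Without control replicate 1 the counts were 13 and 10, with medians of -0.26 and -0.29. Differences between these shares were not tested.

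**Figure D4:**
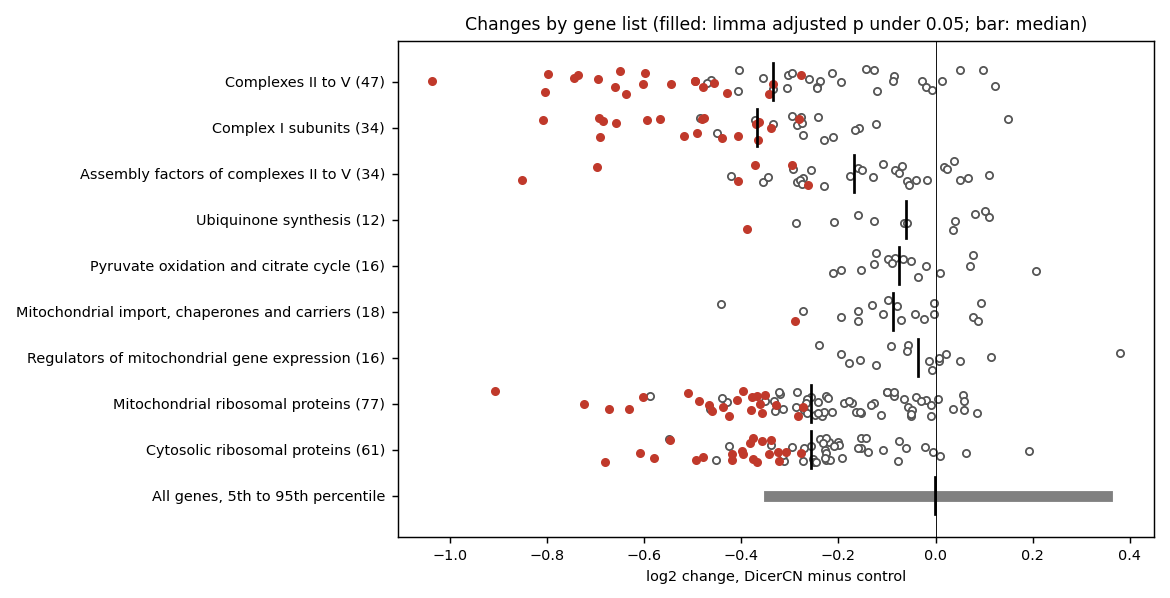
Changes of the genes of 9 lists (log2, DicerCN minus control; points are genes, filled where limma's adjusted p was under 0.05, bars are medians), with the 5th to 95th percentile of all genes in grey, -0.34 to 0.35. Complexes II to V, complex I and both ribosomal lists have medians between -0.37 and -0.26, and the citrate cycle and regulator lists lie near 0.

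**Figure D5:**
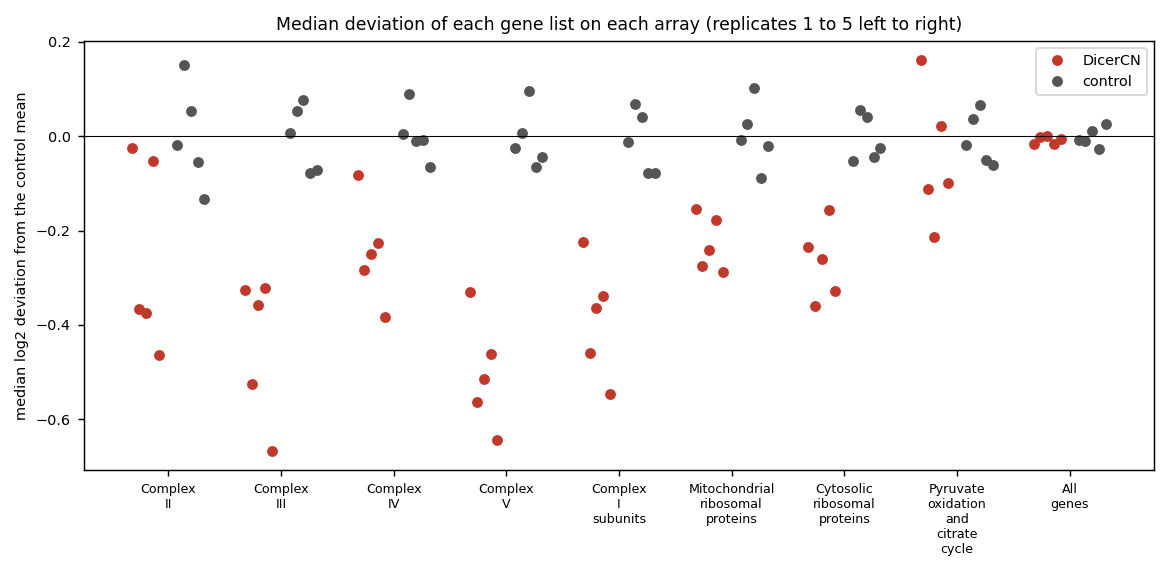
Median deviation from the control mean on each array, for each complex and for 5 other gene sets. DicerCN arrays lie below the control arrays for complexes III, IV and V, complex I and both ribosomal lists, overlap them for complex II and the citrate cycle, and lie near 0 over all genes.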

How the data were processed

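Total RNA was labelled by the Affymetrix whole-transcript assay, per the labels' protocols, and the submitters' processing notes name GCOS. The values the authors deposited were taken as log2 signals from their range (1.91 to 15.2). Their summary and normalization method: not given in the sources used here. Array medians of 6.54 to 6.56 show that arrays had been scaled to each other, so a change in total RNA would not be seen. Of 35557 probe sets, 21789 had 1 gene symbol, 1621 several and 12147 none, and those with several or none were left out. The probe set of highest mean stood for each gene.

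The 2 genotypes were tested in limma 3.58.1 under R 4.3.3, 2-sided, with Benjamini-Hochberg adjustment over 19938 genes, and the code was tested on simulated data. Exact permutation tests used all 252 splits of the arrays. The labels give each array its own embryo. The number of arrays limits precision (median SE 0.0986). Named were members that passed, the 2 highest and 2 lowest changes per complex, tissue isoforms, and up to 4 genes per other list by smallest p plus called ones, of which the text gives a part. Members and lists were chosen with earlier results of these data known. The cytosolic ribosomal list, the background of genes of highest signal, the fit without 2 arrays and the second Cox7a2l probe set were added after the values were seen. Promoter letters were searched in Python 3.11.15. No column of other samples was present.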

Additional observations from a re-analysis of the deposited data

Results flagged for a closer look

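In 94 groups of 5 arrays (47 genes, 2 groups each), 3 had 1 array far from the other 4; chance gives about 1 such group in 20. Cox7a1 was 5.74 in DicerCN replicate 3, against 5.78 to 5.80 in the other DicerCN arrays. Cox5b was 10.70 in control replicate 2, above 10.35 to 10.44 in the other controls. Atp5k was 9.51 in control replicate 3, above 9.25 to 9.30 in the other controls.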

How the results depend on the processing

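Over 22 alternatives, members called lower numbered 12 to 23 and none was called higher, and 11 of 20 calls held in all. The macrophage covariate moved most, with 12 members lower, a median change of -0.43, and 62 genes higher and 159 lower over all genes. The retina covariate gave 15 members lower, a median change of -0.33, and 488 genes higher and 534 lower over all genes. Leaving out 1 array gave 18 to 23 members lower, 0 higher, and medians of -0.36 to -0.32. Over all genes it gave 303 to 503 higher and 481 to 840 lower, with the fewest without control replicate 1. Without control replicate 2 the higher calls were 325, and without control replicate 3 the lower calls were 504. Deviations of same-numbered arrays of the 2 groups had correlations between -0.088 and 0.19. Arrays of different numbers were not compared, so whether the numbers mark pairs was not tested. With the replicate block, 20 members fell (without Uqcrc1, adjusted p = 0.0680, and with Atp5g2), and all genes gave 471 higher and 629 lower. Quantile normalization gave 21 members lower and 21 without overlap, and the mean of probe sets 21 and 20. Signs of uncalled changes near 0 turned. With the macrophage covariate these were Sdhc (-0.084), Uqcrfs1 (-0.022), Cox7b2 (0.019) and Atp5b (-0.044). With the retina covariate they were Cox8c (0.023), Cox8b (0.051) and Cox7b2 (0.0059). Atp5a1 turned after quantile normalization (0.011), and Atp5b with array weights (-0.0028) and the muscle covariate (-0.0019). Leaving out 1 array, Cox8c ran from -0.065 to 0.012, Cox8b from -0.069 to 0.037, Cox7b2 from -0.044 to 0.012 and Atp5b from -0.022 to 0.042. Cox7a2l kept its sign when 1 array was left out, from -0.15 to -0.016. Without control replicate 4 and DicerCN replicate 5, an alternative chosen after seeing the data, Cox7a2l (0.017) and Cox8b (0.035) turned. The cause was not tested.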

Other observations

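In 20 of 47 members (42.6%) replicates 1 and 4 were the 2 highest DicerCN arrays, against 12.8% of all genes, and the same held for 15 of 34 complex I genes and 30 of 61 cytosolic ribosomal protein genes. Among these members were Atp5md, Atp5mpl, Atp5j2, Uqcrh, Cox7b and Cox6c. Atp5e, Atp5g1, Atp5o, Cyc1 and Uqcr11 had another pair highest. Control arrays had favoured pairs too. Replicates 2 and 3 were the 2 highest control arrays in 13 members (27.7%, against 11.7% of all genes). The same held for 14 complex I and 24 cytosolic ribosomal protein genes. Replicates 2 and 4 were highest in 10 members (21.3%, against 8.69%). These patterns were noticed in the data, the labels give no batch for these arrays, and they were not tested.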
